A study of Mus musculus with 6 samples.

Results

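Carbonic anhydrases hydrate carbon dioxide to bicarbonate and a proton, and the 8 genes described here are those of the family named for this comparison of mouse proximal and distal colon, namely Car1, Car2, Car3, Car4, Car8, Car9, Car12 and Car13. They were found as the probe sets annotated to only 1 of these genes, and for each gene the brightest of these, by its mean over the 6 arrays, was used. All 8 were measured, among 18193 genes in all. The mice were untreated females of the strain C57BL/6J, an inbred line, and there were 3 libraries labelled proximal colon and 3 labelled distal colon, each hybridised to 1 array. The design text names 3 animals as the source of both regions, and which libraries share an animal was not known here. Age is not stated. No treatment, allele or transgene separates the groups, and the labels name whole regional tissue rather than a purified cell type. All values are log2 expression, so 1 unit is a doubling, and all differences are distal minus proximal.

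In the colon, bicarbonate and protons made inside epithelial cells are exchanged for luminal chloride and sodium, which couples carbonic anhydrase to salt and water absorption and to control of surface pH. Car1, Car2, Car3 and Car13 are cytosolic enzymes, and Car1 and Car2 are classic products of colonic epithelium. Car4 is tethered to the outer face of the apical membrane, while Car9 and Car12 cross the membrane with their catalytic domain outside the cell. Car8 is a related protein that has lost the enzyme activity and binds an intracellular calcium release channel.

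A promoter sequence was at hand for 3 of the 8 genes in the RefSeq table of build GRCm38.p6. The 250 bases before the transcript start are shown for Car4, the member that was higher in distal libraries in the fit of 4 libraries below, for Car12, the member with the largest difference there by its brightest probe set, and for Car9, a gene known to be induced by low oxygen. Capitals mark the core of the hypoxia response element, ACGTG on either strand, so that CACGT in the printed strand is the same element read from the other strand. All of them lie on the plus strand, at chr11:84957504-84957753, chr9:66713436-66713685 and chr4:43506776-43507025 in that order.
Car4: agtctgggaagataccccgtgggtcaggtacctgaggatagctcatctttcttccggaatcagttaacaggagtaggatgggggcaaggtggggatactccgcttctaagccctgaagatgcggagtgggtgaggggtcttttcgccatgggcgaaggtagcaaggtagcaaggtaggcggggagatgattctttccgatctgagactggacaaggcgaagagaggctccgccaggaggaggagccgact
Car12: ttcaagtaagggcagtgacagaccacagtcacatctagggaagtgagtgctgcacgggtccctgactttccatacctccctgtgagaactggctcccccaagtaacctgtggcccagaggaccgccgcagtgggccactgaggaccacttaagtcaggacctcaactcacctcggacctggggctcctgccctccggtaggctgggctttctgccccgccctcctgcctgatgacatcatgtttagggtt
Car9: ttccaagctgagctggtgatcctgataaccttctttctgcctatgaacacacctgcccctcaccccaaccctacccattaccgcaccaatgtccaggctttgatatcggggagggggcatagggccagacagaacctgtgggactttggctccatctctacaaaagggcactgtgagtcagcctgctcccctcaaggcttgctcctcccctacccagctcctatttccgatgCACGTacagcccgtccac
The core was present once in the Car9 window, on the minus strand at bases -18 to -14 from the start, and these letters were not in the windows of Car4 and Car12. Of 32851 windows of this length in the table, 16.6% hold the core on either strand. The core of caudal homeobox binding sites, TTTAT on either strand, was in none of the 3 windows, against 37.3% of all windows. A match or its absence describes the letters only.

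A pair of libraries went against their labels, which bears on every comparison below. Hoxb13, a posterior patterning gene, was high in the libraries labelled distal 1 (13.78), distal 2 (13.29) and proximal 1 (13.39). It was low in those labelled proximal 2 (6.53), proximal 3 (6.48) and distal 3 (6.65). Over all genes, proximal 1 correlated at 0.993 with distal 1 and 0.977 with proximal 2, and distal 3 at 0.996 with proximal 2 and 0.974 with distal 1. An exchange of these labels is possible and was not tested, and it would change what every as-labelled mean and difference measures. Each result is therefore given for the 6 libraries as labelled and for 4 libraries without those labelled proximal 1 and distal 3. The choice of these 2 rests on measured expression, so the p-values of the 4 libraries overstate the evidence and describe only these 4. As labelled, 0.0% of the 18193 genes passed limma at an adjusted p of 0.05 (0 genes), and 554 had an unadjusted p below that threshold. In the 4 libraries 19.2% of genes passed, 7.71% higher and 11.5% lower in distal libraries. Markers of pancreatic acinar cells were also high in 1 library of each label: the mean of 6 measured markers was 12.49 in proximal 1 and 12.48 in distal 1, against 6.46 to 6.77 in the others, and 1 of the 6, Cela1, passed in the 4 libraries. The mean of 7 measured surface colonocyte markers was 13.64 in proximal 1, 13.74 in distal 1 and 13.82 in distal 2, against 14.17 to 14.21 in proximal 2, proximal 3 and distal 3. Of these 7, Krt20 and Clca4a were lower in distal libraries of the 4 and 5 did not pass. The part of either marker list in the results below was not tested, beyond the values given without distal 1. All 7 colonocyte markers and all 7 goblet cell markers were far above the lower quartile of gene values, 6.54, in all libraries. With 3 libraries a group or fewer, the number of arrays limits the precision.

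As labelled, none of the 8 carbonic anhydrase genes passed the test. Their differences ran from -1.06 for Car12 to 0.32 for Car4, and the limma adjusted p from 0.824 to 0.988. At an unadjusted p of 0.05 there were also 0 members by limma, and 0 by a test with no variance shared between genes. The distal and proximal values overlapped for all 8 genes, where 7.33% of all genes did not overlap. In the 4 libraries, 6 of the 8 passed, 5 of them lower in distal libraries (Car1, Car8, Car9, Car12 and Car13) and 1 higher (Car4), while Car2 and Car3 did not pass. These counts are to be read beside the 19.2% of all genes that passed there, 11.5% lower and 7.71% higher. The members were also chosen with earlier results known. The median difference of the 8 genes was -0.53, against -0.045 over all genes. The values of distal 1 and 2 did not overlap those of proximal 2 and 3 for 7 of the 8 genes, a share to be read beside 62.2% of all genes. Some markers of other cell types also differed between these pairs, and all marker counts here and below are to be read beside the same 19.2%. All 8 smooth muscle markers had positive differences in the 4 libraries, from 0.22 to 0.98 with a median of 0.37, of which Des (0.62) and Synm (0.98) passed and 6 did not. The means of that list were 12.95 and 12.76 in proximal 2 and 3 and 13.26 and 13.34 in distal 1 and 2. They were 13.21 in proximal 1 and 13.22 in distal 3, so for this list distal 3 lay with the distal pair, unlike for Hoxb13. As labelled, the list means ran from 12.76 to 13.21 in proximal and from 13.22 to 13.34 in distal libraries, so the nearest values were almost equal. Among the single markers only Myh11 and Synm did not overlap as labelled, and none of the 8 passed there. Of 7 enteroendocrine markers, Insl5 (5.78) and Pyy (1.11) were higher in distal libraries and 5 did not pass. Of 7 goblet cell markers, Clca1 (0.62) was higher and 6 did not pass, and 0 of 6 tuft cell markers passed. The goblet list mean was 14.54, 14.28 and 14.27 in proximal 1, 2 and 3, and 14.35, 14.5 and 14.5 in distal 1, 2 and 3. Distal 3 thus did not lie with proximal 2 and 3 for that list either. The part of these cell types in the members' values was not tested. In these pieces of whole tissue, fewer cells of a type and less RNA per cell cannot be told apart.

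**Figure D1:**
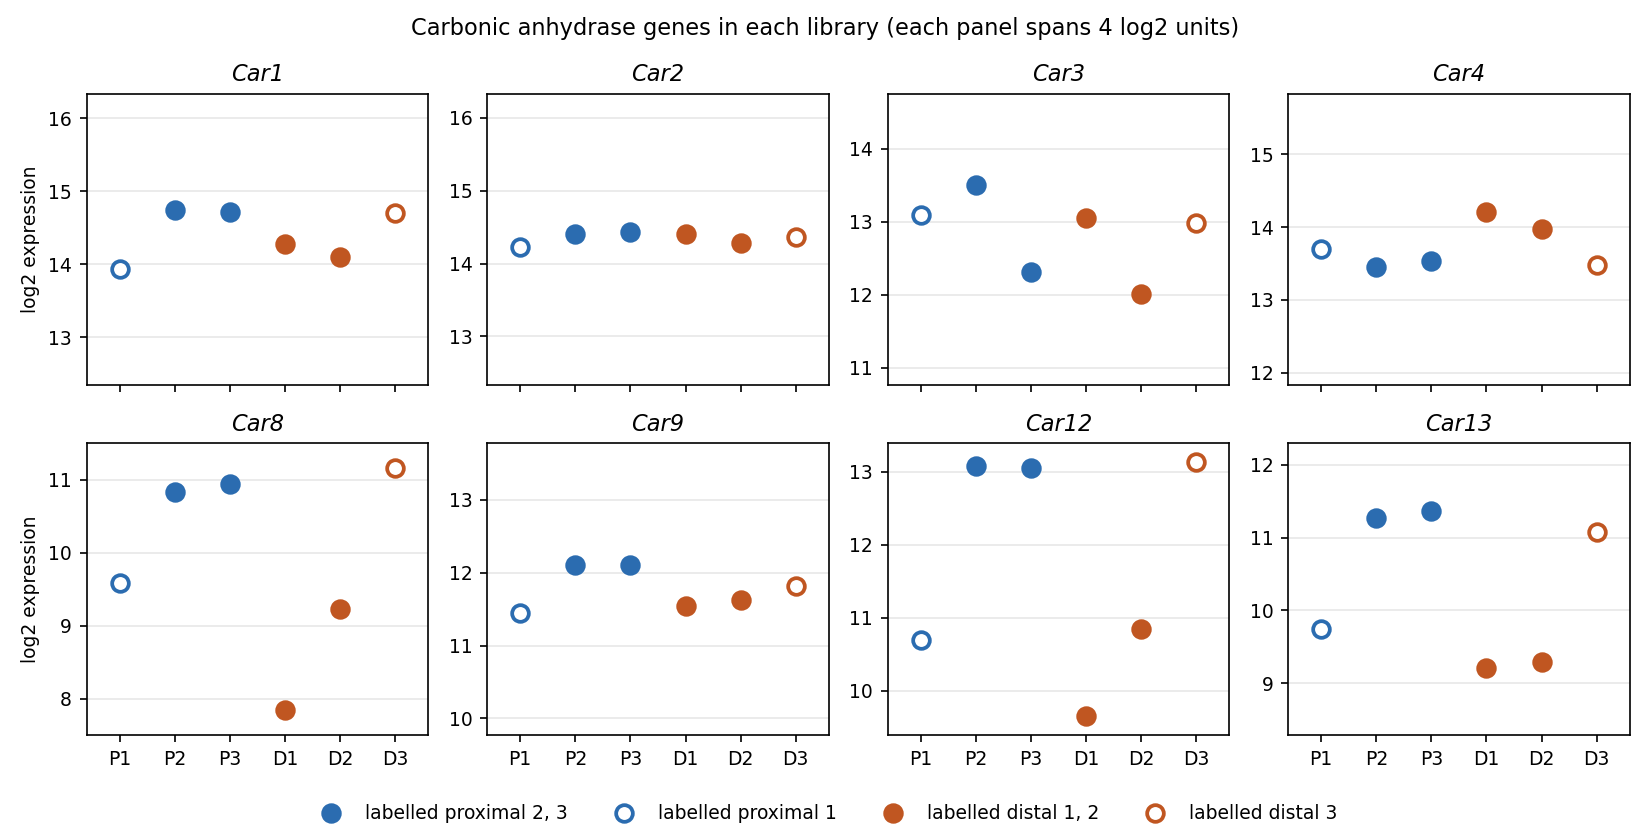
Log2 expression of each carbonic anhydrase gene (vertical axis, the same span in every panel) in the 6 libraries labelled proximal 1 to 3 (P1 to P3) and distal 1 to 3 (D1 to D3), 1 point per library. Car8, Car12 and Car13 are low in P1, D1 and D2 and high in P2, P3 and D3, Car2 is nearly level, and Car3 follows neither grouping.

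**Figure D2:**
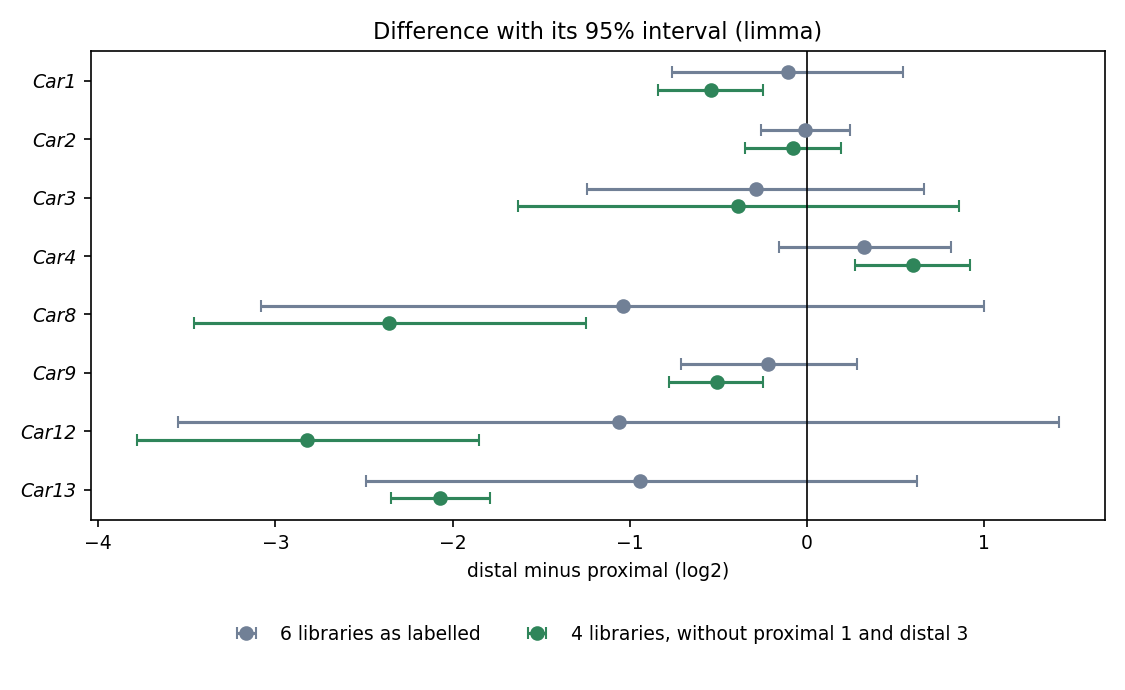
Distal minus proximal difference of each gene (horizontal axis, log2) with its 95% interval from limma, for the 6 libraries as labelled and for the 4 libraries without proximal 1 and distal 3. All intervals as labelled include 0, whereas those of the 4 libraries exclude it for 6 genes, with Car12 at -2.82 and Car4 at 0.60.

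Among the cytosolic enzymes, Car13 had the smallest p-value. It measured 9.74, 11.27 and 11.37 in proximal 1, 2 and 3, and 9.21, 9.29 and 11.07 in distal 1, 2 and 3. Proximal 1 thus lay with distal 1 and 2, and distal 3 with proximal 2 and 3, so that the labelled groups overlapped. As labelled the proximal mean was 10.79 ± 0.91 (SD, n = 3) and the distal mean 9.86 ± 1.05 (SD, n = 3), a difference of -0.94 (SE 0.64, limma adjusted p = 0.824). In the 4 libraries the difference was -2.07 (SE 0.11, limma adjusted p = 0.000668), or 4.20-fold lower in distal libraries. It was as large without distal 1, the library of the 4 with high acinar markers, at -2.03. That fit has 1 distal library and thus no measure of the distal spread. The call was lost without proximal 3 (-2.02). The 3 probe sets of Car13 differed by -2.07, -2.35 and -2.14 in the 4 libraries, and all of them passed there.

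Car1, an abundant enzyme of the colonic surface, showed the same arrangement of libraries over a narrower range. It measured 13.93, 14.75 and 14.72 in proximal 1, 2 and 3, and 14.28, 14.10 and 14.70 in distal 1, 2 and 3. The lowest value was thus in a library labelled proximal, and as labelled the difference was only -0.11 (SE 0.27, limma adjusted p = 0.920). The 4-library difference was -0.54 (SE 0.12, limma adjusted p = 0.0320), 1.46-fold lower in distal libraries, and centring each array on its median ended the call (-0.46, adjusted p = 0.0618). Leaving out any 1 of the 4 libraries did so too, with differences from -0.64 to -0.46. The highest value on any array was 15.16, and whether signals this near the top of the scale are compressed was not tested.

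Car2, the fast cytosolic isozyme, measured 14.23, 14.41 and 14.43 in proximal 1, 2 and 3, and 14.40, 14.28 and 14.37 in distal 1, 2 and 3. Its whole range was 0.20, the narrowest of the 8, and compression of signals near the top of the scale was not tested for Car2 either. The difference was -0.01 (SE 0.10, limma adjusted p = 0.988) as labelled and -0.08 (SE 0.11, limma adjusted p = 0.658) in the 4 libraries. The 95% interval of the latter ran from -0.35 to 0.19, and its sign turned when arrays were centred on their medians (0.01). A p above the threshold does not show that the levels were equal. Red blood cells also hold Car1 and Car2, and the means of 4 measured erythrocyte markers were 5.36 to 5.67 over the libraries, below the lower quartile of 6.54.

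Car3, a cytosolic isozyme of low activity that is abundant in fat and muscle, did not follow the labels or the pairs. It measured 13.09, 13.51 and 12.32 in proximal 1, 2 and 3, and 13.05, 12.01 and 12.98 in distal 1, 2 and 3. Both regions thus held a high and a low library, and neither the labelled difference (-0.29, SE 0.39, limma adjusted p = 0.853) nor that of the 4 libraries (-0.39, SE 0.49, limma adjusted p = 0.638) passed. The latter turned to 0.21 without proximal 2 and to 0.13 without distal 2. Adipoq, the fat hormone adiponectin, put the 6 libraries in the same order as Car3, with 11.25, 11.79 and 10.29 in proximal 1, 2 and 3, and 10.95, 9.83 and 10.88 in distal 1, 2 and 3. It was the only 1 of 7 measured adipocyte markers with exactly this order. Proximal 2 was the highest library for 6 of the 7, the exception being Pck1, and the mean of the list ran from 10.15 to 11.02 in proximal and from 9.43 to 10.56 in distal libraries. Of these 7, Cidec (-2.68) and Lipe (-1.36) were lower in distal libraries of the 4 and 5 did not pass. The part of attached fat in the Car3 values was not tested. The 8 skeletal muscle markers had means of 6.57 to 6.98 over all libraries. Ckm (7.54 to 8.92), Acta1 (7.42 to 9.29), Mylpf (7.24 to 7.80) and Tnni2 (7.03 to 7.93) were above 6.54 in every library, while the myosin genes Myh4 and Myh1, and Pvalb, were below it in every library. Of the 8, 2 were higher and 2 lower in distal libraries of the 4, and 4 did not pass. The part of muscle in the Car3 values was not tested either.

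**Figure D3:**
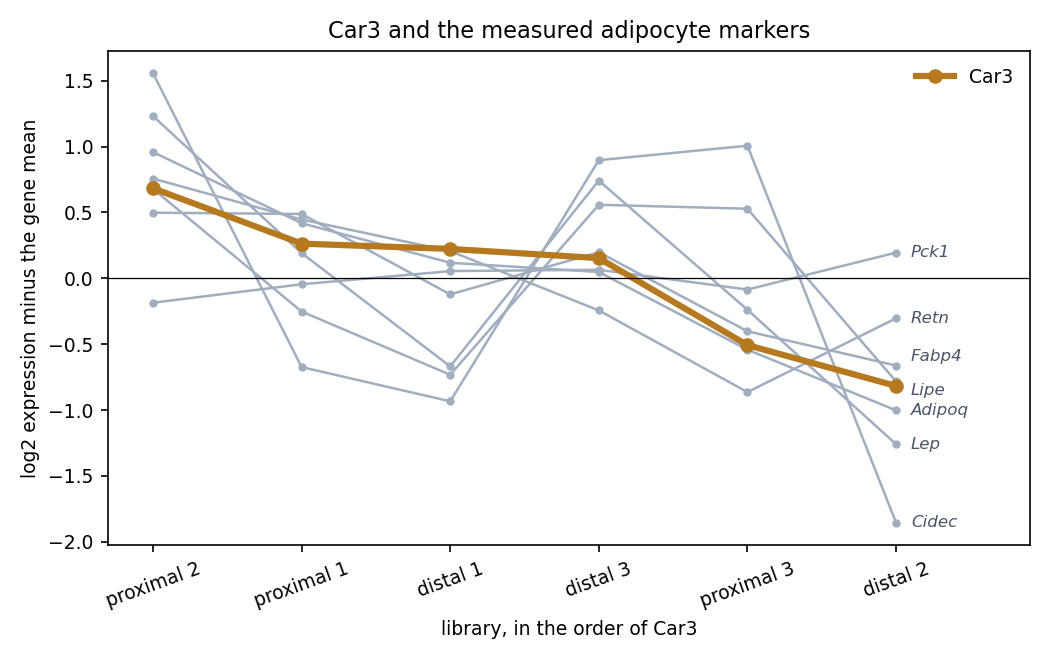
Log2 expression minus the gene's mean (vertical axis) of Car3 (thick line) and the 7 measured adipocyte markers (thin lines) in the 6 libraries, ordered from high to low Car3. Car3 and Adipoq fall in the same order from proximal 2 to distal 2, while Cidec, Lipe and Lep are higher in proximal 2, distal 3 and proximal 3 than in distal 1.

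Car13, Car1, Car3 and Car2 lie next to each other in this order in the RefSeq gene table, with no other protein-coding gene between them. In that order, the 4-library differences were -2.07 (SE 0.11), -0.54 (SE 0.12), -0.39 (SE 0.49) and -0.08 (SE 0.11), of which the last 2 did not pass. The nearest measured protein-coding genes beyond Car13, in order of distance, were Rbis (-0.04, SE 0.12), E2f5 (-0.22, SE 0.10) and Lrrcc1 (0.22, SE 0.11), none of which passed. Beyond Car2, the nearest measured gene was Sirpb1a (-0.07, SE 0.17), which did not pass and was below the lower quartile of 6.54 in all libraries. These neighbours were added after the values were seen.

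The membrane-bound enzymes differed in both directions. Car12, which faces the basolateral side in many epithelia, had the largest difference of the family by the brightest probe set. It measured 10.69, 13.08 and 13.05 in proximal 1, 2 and 3, and 9.65, 10.85 and 13.13 in distal 1, 2 and 3. The 3 high libraries lay between 13.05 and 13.13, whereas the 3 low ones were spread over more than 1 unit, with distal 1 the lowest. As labelled the difference was -1.06 (SE 1.03, limma adjusted p = 0.825), and in the 4 libraries -2.82 (SE 0.38, limma adjusted p = 0.00938), or 7.04-fold lower in distal libraries. Without distal 1 it was -2.22 and without distal 2 -3.42, each fit with 1 distal library and thus no measure of the distal spread. The call was lost without proximal 2 or without proximal 3. The size depended on the probe set: the other probe sets of Car12, tested among all probe sets, gave -0.86 (limma adjusted p = 0.0154) and -0.40 (adjusted p = 0.151), and the mean of all 3 gave -1.36. By that mean Car12 was no longer first, since Car8 differed by -2.15 and Car13 by -2.19.

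Car4, the enzyme of the apical surface, was the 1 member higher in distal libraries. It measured 13.70, 13.45 and 13.54 in proximal 1, 2 and 3, and 14.21, 13.97 and 13.48 in distal 1, 2 and 3. Distal 1 and 2 were the highest, distal 3 lay among the proximal libraries, and proximal 1 was above the other proximal libraries but nearer to them than to the distal pair. The difference was 0.32 (SE 0.20, limma adjusted p = 0.824) as labelled and 0.60 (SE 0.13, limma adjusted p = 0.0333) in the 4 libraries, 1.51-fold higher in distal libraries. Its second probe set gave 0.52 (limma adjusted p = 0.0391). Without any 1 of the 4 libraries the call was lost, with differences from 0.47 to 0.72.

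Car9, a transmembrane enzyme of gastric and intestinal epithelium, measured 11.44, 12.10 and 12.10 in proximal 1, 2 and 3, and 11.54, 11.63 and 11.82 in distal 1, 2 and 3. Proximal 2 and 3 were the highest libraries and proximal 1 the lowest, and distal 3 lay between the pairs. The difference was -0.22 (SE 0.21, limma adjusted p = 0.824) as labelled and -0.51 (SE 0.11, limma adjusted p = 0.0292) in the 4 libraries, 1.43-fold lower in distal libraries, with the call lost without any 1 of them (-0.56 to -0.47). Of 17 measured genes of the low-oxygen response, 2 were lower in distal libraries there, the differentiation gene Ndrg1 (-0.84, SE 0.11) and the mitochondrial gene Higd1a (-0.87, SE 0.11). A further 3 were higher, the transcription factor gene Epas1 (0.66), the demethylase gene Kdm3a (0.54) and the prolyl hydroxylase gene Egln3 (0.55), and 12 did not pass. The median of that list was 0.10, and its counts are to be read beside the 19.2% of all genes that passed there.

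Car8, the family member without enzyme activity, measured 9.58, 10.83 and 10.95 in proximal 1, 2 and 3, and 7.84, 9.23 and 11.16 in distal 1, 2 and 3. Distal 1 was the lowest by more than 1 unit, and distal 3 was the highest of all. The difference was -1.04 (SE 0.84, limma adjusted p = 0.824) as labelled and -2.36 (SE 0.44, limma adjusted p = 0.0226) in the 4 libraries, 5.12-fold lower in distal libraries. Without distal 1 it was -1.66 and without distal 2 -3.05, each fit with 1 distal library and thus no measure of the distal spread. The call was lost without proximal 2 or without proximal 3. The other probe sets of Car8 gave -2.66 and -1.44 in the 4 libraries and passed there too. Car8 is known from neurons, and of 7 measured enteric neuron markers 1 passed, Snap25, which was higher in distal libraries (1.14, SE 0.20). The means of that list were 9.15 to 9.69 in proximal and 9.35 to 9.72 in distal libraries, and its part in the Car8 values was not tested.

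**Figure D4:**
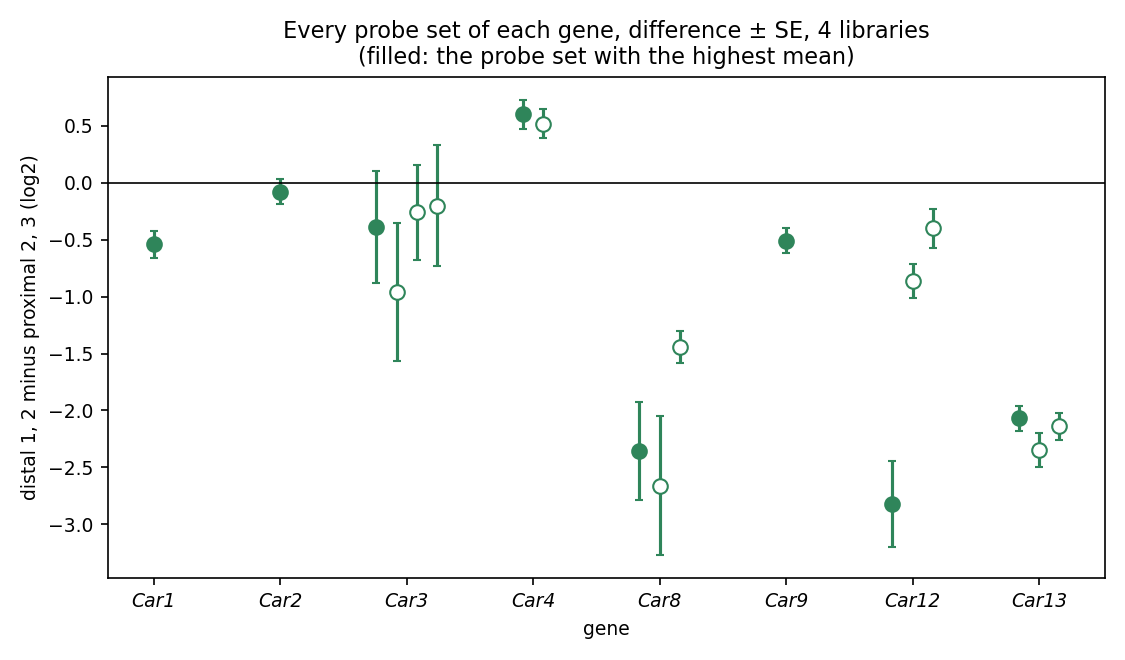
Difference in the 4 libraries (vertical axis, log2, distal 1 and 2 minus proximal 2 and 3, with its SE) for all 18 probe sets of the 8 genes, the filled points being those with the highest mean. All probe sets of a gene lie on the same side of 0, and their sizes are most unequal for Car12, from -2.82 to -0.40.

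Members were set beside each other by the root mean square difference of gene-centred values over the 6 libraries. This measure depends on the size of the changes as well as on the arrangement of the libraries. Car8 and Car12 were 0.37 apart, Car8 and Car13 0.48, and Car12 and Car13 0.55. Car4 was the farthest from Car12, at 1.66. Car1 and Car9 were 0.14 apart, and Car1 and Car2 0.27. The ranges of Car1 (0.82), Car9 (0.66) and Car2 (0.20) were narrow, so these small values do not show a shared arrangement. Proximal 1 lay nearer the distal pair for 6 of the 8 genes, Car3 and Car4 being the exceptions. Distal 3 lay nearer the proximal pair for 6 of the 8, with Car2 and Car9 as the exceptions. Among all 3494 genes that passed in the 4 libraries, proximal 1 lay nearer the distal pair for 2640 and distal 3 nearer the proximal pair for 3149, and the members' counts are to be read beside these. The sets are unlike, since the members' counts include Car2 and Car3, which did not pass.

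For the 3 members with a range of at least 2, the genes with the smallest root mean square difference over the 6 libraries were named by rule. For Car13 they were Exoc3l4 (0.084), Zfp667 (0.106) and Mpp1 (0.111). For Car12 they were the lysophosphatidic acid receptor gene Lpar3 (0.173), the sialyltransferase gene St3gal1 (0.205) and ccdc198 (0.230), as the gene table spells it. For Car8 they were the glycosyltransferase gene A4gnt (0.249), Akr1c18 (0.259) and the chemokine gene Ccl5 (0.263). These values describe likeness in 6 libraries that fall into a pair of clusters, so many genes share the broad pattern.

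The 8 other carbonic anhydrase genes on the array, Car5a, Car5b, Car6, Car7, Car10, Car11, Car14 and Car15, did not pass in either fit. Their 4-library differences ran from -0.37 for Car5b to 0.45 for Car15, with a median of -0.11. Car5a, Car6 and Car10 were below the lower quartile of 6.54 in all libraries, where background can hide a difference. Car14, a membrane-bound enzyme, measured 9.91, 10.24 and 10.07 in proximal 1, 2 and 3, and 9.92, 9.90 and 10.11 in distal 1, 2 and 3, a 4-library difference of -0.24 (SE 0.11, limma adjusted p = 0.200).

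Partners that move bicarbonate and protons were read beside the enzymes, from lists chosen for this comparison. As labelled, none of their genes passed. The counts in the 4 libraries are to be read beside the 19.2% of all genes that passed there. Of 16 measured bicarbonate exchangers, cotransporters and channels, 4 were higher in distal libraries and 1 was lower, while 11 did not pass. The higher ones were Best2, a bicarbonate-permeable channel of goblet cells (2.5, SE 0.25), the chloride channel gene Ano1 (1.70, SE 0.11), the sodium bicarbonate cotransporter gene Slc4a4 (0.56, SE 0.11) and the anion exchanger gene Slc26a4 (0.53, SE 0.13), whose proximal values of 6.26 and 6.22 lay below the lower quartile. The lower one was Slc26a6, an apical chloride bicarbonate exchanger (-1.20, SE 0.20). Slc26a3, the main chloride bicarbonate exchanger of the colonic surface, measured 14.04 to 14.29 in all libraries, with a 4-library difference of 0.02 (SE 0.11, limma adjusted p = 0.900). Compression of signals near the top of the scale was not tested for it.

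Of 16 proton exporters and monocarboxylate carriers, 2 were higher and 2 lower in distal libraries, with 12 that did not pass. The proton-potassium pump gene Atp12a had the widest difference (7.02), against proximal values of 6.93 and 6.10, near the lower quartile of 6.54, where background can make a difference look smaller. By comparison, the sodium-coupled monocarboxylate transporter gene Slc5a8 differed by 0.62. Slc16a7 (-0.76), a monocarboxylate carrier, and Emb (-0.92), a chaperone of such carriers, were lower. Of 17 regulators of this transport, 3 were lower in distal libraries and 0 higher: Prkg2, a kinase that responds to cyclic GMP (-3.05, SE 0.45), the guanylate cyclase ligand gene Guca2b (-1.23, SE 0.12) and the kinase gene Sgk1 (-0.56, SE 0.13). Prkg2 was lowest in distal 1 (7.65) and highest in distal 3, as were Car8 and Car12.

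Of 13 genes of water and ammonia handling, 2 were higher and 7 lower in distal libraries, with 4 that did not pass. Those lower include the urea cycle genes Cps1 (-1.88) and Otc (-1.36), the first of which encodes an enzyme that consumes bicarbonate, the ammonia channel gene Rhbg (-1.01) and the water channel genes Aqp11 (-1.60) and Aqp8 (-0.72). The water channel gene Aqp4 (2.5) was among those higher.

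**Figure D5:**
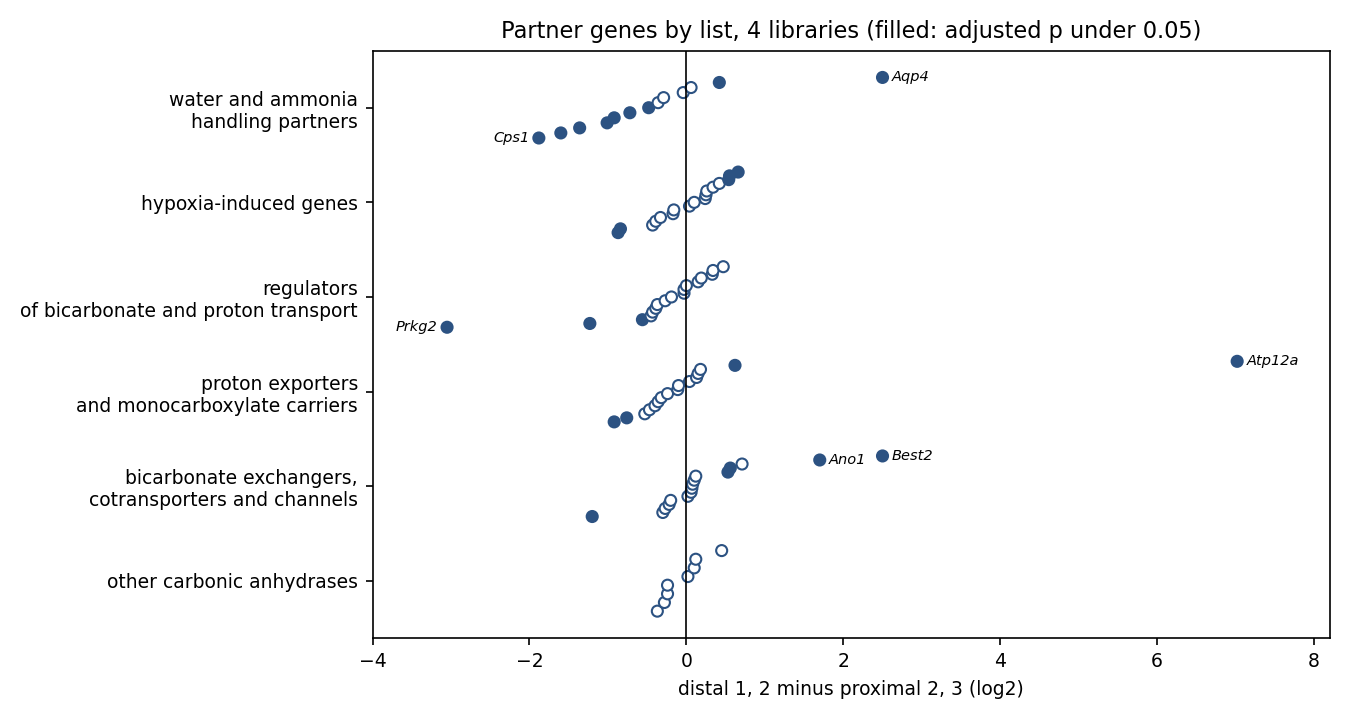
Difference in the 4 libraries (horizontal axis, log2, distal 1 and 2 minus proximal 2 and 3) for every measured gene of the 6 lists of partners, 1 point per gene, filled where the limma adjusted p was under 0.05. The 8 other carbonic anhydrases lie between -0.37 and 0.45 with no filled point, while Atp12a stands at 7.02 and Prkg2 at -3.05.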

How the data were processed

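The deposited log2 values, 1 per probe set and array, were made by the authors with RMA in Partek 6.5, per the submitters' processing notes. That they are on a log2 scale is taken from that note and from the range, 2.91 to 15.16. The sources used here give no settings of RMA. RNA was extracted with Trizol and amplified with NuGEN Ovation kits, per the labels' protocols. RMA makes the arrays alike in distribution, so a shift of most genes would be missed. The table holds 45101 probe sets. The platform annotation gives 34945 of them 1 gene symbol, 932 several and 9160 none, with 64 controls, and symbols of 34741 were updated by gene identifier. This left 18193 genes, 9010 with several probe sets. The 8 members had 18.

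limma 3.58.1 (R 4.3.3, lmFit and eBayes) compared distal with proximal libraries, two-sided and without the replicate number in the model, and p-values were adjusted over all genes by Benjamini-Hochberg. The threshold was 0.05. The calculation was tested on simulated data. The design text calls 3 animals biological replicates, but no label ties a library to an animal, so libraries were treated as independent. Members, lists, tests and the fit of 4 libraries were chosen with earlier results of these data known. Named genes are the members, up to 6 genes of a list that passed, by smallest adjusted p, and the 3 genes nearest each member with a range of at least 2. Alternatives were the replicate block, array weights, an unmoderated test, leaving out libraries, leaving out genes with a mean below 9.31, other scalings, other uses of probe sets and another variance prior.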

Additional observations from a re-analysis of the deposited data

How the results depend on the processing

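As labelled, the count of genes that passed was 0 with all but 2 alternatives. Leaving out proximal 1 and distal 3 gave 3494 genes and 6 members. Array weights gave 5579 genes, and 5 members without Car1. They gave proximal 1 and distal 3 the lowest weights, 0.322 and 0.291. Distal 2 also had a low weight, 0.403, against 6.719 for proximal 2, 1.572 for proximal 3 and 2.505 for distal 1. The weighted distal values thus rested mostly on distal 1, the distal library with high acinar markers. With the replicate number as a block, 0 genes and 0 members passed. Libraries with equal numbers deviated from their group means with correlations of 0.677, -0.448 and 0.678. These deviations contain the departure of proximal 1 and distal 3 from their labels, so they cannot show which libraries share an animal. No label ties a number to an animal, so the numbers were not taken as pairs. The block could not be fitted to the 4 libraries, which share only the number 2.

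In the 4 libraries the count was 146 to 1633 genes and 0 to 3 members when 1 more library was left out, with the remaining single library taken to vary as the other pair does, and 7549 of 34945 probe sets when each was tested on its own. Of the genes that passed, 40.1% were higher in distal libraries with the deposited scaling, 50.2% with quantile normalization and 54.7% with median centring. In these 3 settings Car4, Car8, Car9, Car12 and Car13 passed with the same direction.

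Signs turned for Car2 after median centring, to 0.06 as labelled and 0.01 in the 4 libraries. With 1 library left out, differences as labelled ran from -0.38 to 0.04 for Car1, -0.07 to 0.03 for Car2 and -0.62 to 0.04 for Car3, and in the 4 libraries from -0.98 to 0.21 for Car3. The other members kept their sign as labelled, with ranges of 0.16 to 0.53 for Car4, -1.92 to -0.26 for Car8, -0.44 to -0.11 for Car9, -2.02 to -0.28 for Car12 and -1.54 to -0.61 for Car13. None of these passed.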
